A study of Mus musculus with 97 samples.

Results

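The epidermal growth factor (EGF) receptor system was followed across whole-colon RNA-seq libraries through 8 genes, chosen by symbol from the 20457 genes of the expression table. These are the ligands Hbegf, Areg, Ereg, Tgfa and Btc and the receptors Egfr, Erbb2 and Erbb3. All 8 were found, and all 8 passed the filter on low values. The mice were WT C57BL6/J animals aged 8 to 12 weeks, given ampicillin, metronidazole, neomycin, vancomycin, a mix of these 4 antibiotics, or PBS as the control. The 3 routes were oral gavage (PO), intraperitoneal injection (IP) and intravenous injection (IV), which makes 15 antibiotic groups and 3 PBS groups, named as in Neomycin-IV. A dose held 2.5 mg of antibiotic in 100 µl of PBS, or 100 µl of PBS alone for the controls, with 2 doses daily over 3 days and a final dose on day 4. How the 2.5 mg of the mix divides among its antibiotics, or whether it is the amount of each, is not given in the sources used here. Colon was taken 4 hours later. The 97 libraries are spread over 18 groups of 4 to 6. Each antibiotic group was set against PBS of its own route, so groups of 1 route share their controls.

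EGF family ligands are made as membrane-bound precursors, and metalloproteases such as ADAM17 and ADAM10 cut them free. Amphiregulin (Areg) and transforming growth factor alpha (Tgfa) bind EGFR alone, whereas heparin-binding EGF-like growth factor (Hbegf), epiregulin (Ereg) and betacellulin (Btc) bind EGFR and ERBB4. ERBB2 binds no ligand, ERBB3 has little kinase activity of its own, and both signal as partners of other receptors. In the gut the system is known for driving crypt cell division and repair of the epithelium, and stromal as well as epithelial cells make its ligands.

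The values are TPM, transcript abundances corrected for transcript length and scaled to the same total in every library, so sequencing depth is unknown and its precision cannot be given. A library held 18247 to 19884 genes above 0, and mitochondrial genes made up 3.52% to 27.5% of its TPM. The colon labels were matched by the epithelial and muscle markers, since Muc2, Car1, Cdx2, Epcam, Krt20, Myh11 and Acta2 had medians of 94.3 to 3250 TPM and none was at 0 in any library. Libraries differed in tissue makeup. A smooth muscle score, averaging log2(TPM + 1) over 18 muscle genes, ran from 7.08 to 11.4, and the pan-epithelial score, the same mean over 12 genes, ran from 5.62 to 10.2. A distal colon score over 5 posterior Hox genes ran from 0.801 to 6.15. In bulk tissue, fewer cells of a type and less RNA per cell cannot be told apart. The columns of 12 libraries, all vancomycin or PBS, stand out of group order at the end of the table. They include 3 of the 4 Vancomycin-IP and 2 of the 4 PBS-IP libraries. Nothing in the labels says that replicates of a group are separate mice, so p-values measure only the spread between these libraries, which may be technical.

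TPM is per transcript length, so levels can be ranked between genes. The receptor partners Erbb3 and Erbb2 were the most abundant members, with medians over the 97 libraries of 220 TPM (lowest 36.6, highest 577) and 119 TPM (17.02 to 398). Egfr had a median of 29.8 TPM (10.5 to 71.6). Among ligands the medians were 22.3 TPM for Hbegf (4.65 to 79.5), 16.7 for Areg (2.36 to 73.0), 15.7 for Tgfa (2.48 to 42.7), 7.64 for Btc (1.11 to 38.6) and 6.34 for Ereg (1.17 to 26.6). The remaining ligands and ERBB4 stood lower. Nrg1, a neuregulin that binds ERBB3 and ERBB4, had a median of 4.79 TPM and Egf itself 1.98 TPM, while Epgn reached 1 TPM in 1 library and Erbb4 in 0 libraries, so neither was tested.

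A test of any difference over the 18 groups called Hbegf (limma adjusted p = 4.25e-05), Areg (adjusted p = 0.00115), Tgfa (adjusted p = 0.0321) and Ereg (adjusted p = 0.0466). These are 4 of the 8 genes, where 13.1% of the 17083 genes tested were called at an adjusted p under 0.05. Erbb3 (0.0637), Egfr (0.0962), Erbb2 (0.0962) and Btc (0.129) did not pass on the same adjusted p. When the 18 groups were put in order of their mean for a gene, 0 of 17 neighbouring pairs differed by more than the larger of their SDs, for each of the 8 genes. The SDs were wide, for Hbegf up to 22.8 TPM where group means ran from 9.89 to 51.7 TPM. That count therefore cannot tell graded means from stepped ones. Leaving out any library kept Hbegf and Areg past the threshold. Tgfa was lost without Mix-IP replicates 2 or 5, Vancomycin-IP replicates 2 or 3 or Vancomycin-IV replicate 3 (adjusted p up to 0.0540), and Ereg was past it in 46 of 97 such fits (adjusted p up to 0.0811). Over 10 alternative settings Hbegf and Areg held in each. Ereg was lost in 6 (limma adjusted p up to 0.134) and Tgfa in 2 (up to 0.0825). Of the genes not called, Erbb3 passed in 4 settings, Btc in 3, Erbb2 in 2 and Egfr in 1.

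Hbegf, the ligand precursor that also serves as the diphtheria toxin receptor in some species, was called against PBS in 4 of the 15 single groups. In the PBS-IP libraries it stood at 4.65, 4.96, 22.4 and 7.53 TPM, in PBS-IV at 23.2, 14.8, 19.1, 8.12 and 16.97 TPM, and in the 6 PBS-PO libraries between 6.99 and 17.4 TPM with a median of 13.3. The highest PBS-IP library, replicate 3, lay well above the other PBS-IP libraries. Its distal score was 1.36, against 5.01 to 5.26 in those others. After the mix IP, Hbegf ranged from 18.5 to 74.4 TPM with a median of 40.6 (42.5 ± 19.0, SD, n = 6, against 9.89 ± 8.46 in PBS-IP, n = 4). All 6 libraries lay above 3 of the 4 PBS-IP libraries, and only replicate 6 was below the highest of them. The distal score of that replicate was 6.01. The other Mix-IP libraries had distal scores of 0.801 to 3.64 and held 32.3 to 74.4 TPM of Hbegf. Whether the score bears on these levels library by library was not tested. The rise of Mix-IP over PBS-IP was 2.15 on the log2(TPM + 1) scale (SE 0.40, limma adjusted p = 0.00341), a scale on which changes of low genes come out smaller than they are. Hbegf was the 1 gene of the 8 called in that comparison, where 0.275% of all genes tested were.

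**Figure D1:**
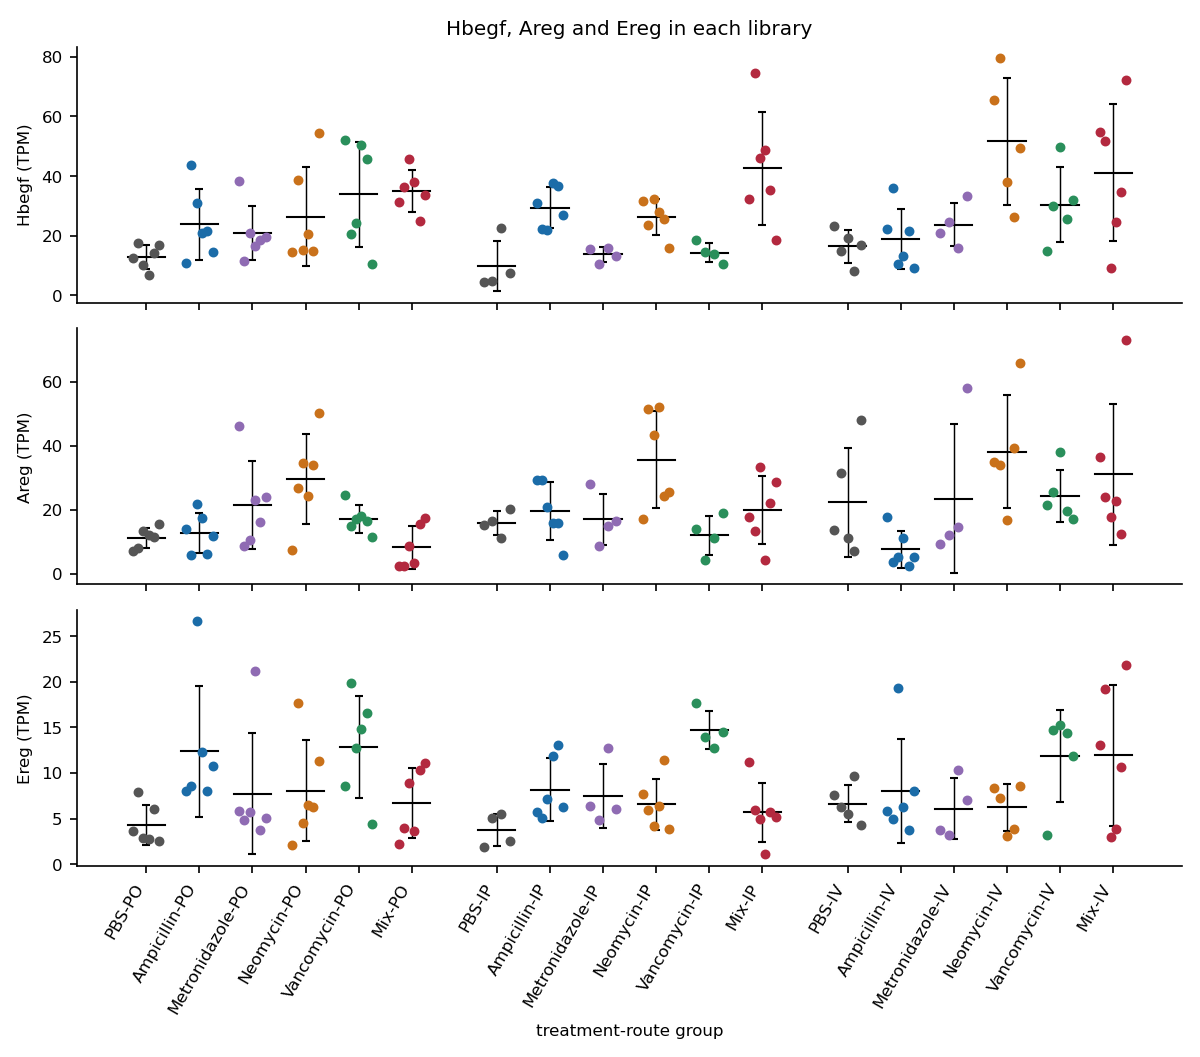
Level of Hbegf, Areg and Ereg (vertical axes, TPM) in every library, with groups ordered by route along the horizontal axis. Points are libraries, horizontal lines group means and bars SD (n = 4 to 6). Hbegf in Neomycin-IV (26.3 to 79.5 TPM) lies above every PBS-IV library (8.12 to 23.2), and Ereg in Vancomycin-IP (12.7 to 17.7) above every PBS-IP library (1.85 to 5.45). In these comparisons 1.88% and 30.6% of all genes had ranges apart in either direction.

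Hbegf rose in 3 further groups. After ampicillin IP it ranged from 22.0 to 37.8 TPM with a median of 29.0 (log2 fold change 1.72, SE 0.40, limma adjusted p = 0.0197), and it was again the 1 gene called of the 8, beside 0.492% of all genes. After neomycin IP it ranged from 16.04 to 32.4 TPM with a median of 26.9 (1.55, adjusted p = 0.0384, beside 0.603% of all genes). In these groups 4 of 6 ampicillin and 5 of 6 neomycin values lay above the highest PBS-IP library, and all lay above the other 3. After neomycin IV the libraries held 65.4, 79.5, 37.9, 26.3 and 49.3 TPM, a rise of 1.56 (SE 0.39, adjusted p = 0.0313, beside 0.544% of all genes). There the ranges of the groups did not overlap, which was so for 1.88% of all genes. The IP comparisons share the same 4 PBS-IP libraries, so they are not independent of each other.

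These calls in single groups were not firm. Fitted on the compared groups alone, the adjusted p was 0.195 for Mix-IP, 0.144 for Ampicillin-IP, 0.165 for Neomycin-IP and 0.199 for Neomycin-IV. Leaving out PBS-IP replicates 1 or 2 ended the calls for Mix-IP (adjusted p up to 0.0962), Ampicillin-IP and Neomycin-IP. The Ampicillin-IP call was also lost without its replicate 4 or PBS-IP replicate 4 (highest adjusted p 0.139). The Neomycin-IP call was also lost without any of its replicates 1 to 5 or PBS-IP replicate 4 (up to 0.322), and the Neomycin-IV call without its replicates 1, 2 or 5 or PBS-IV replicates 2 or 4 (up to 0.280). With the muscle and distal scores as covariates the log2 fold changes were 1.86, 1.53, 1.56 and 1.61 in the same order, each with an adjusted p of 0.00195 to 0.00517.

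In the remaining groups Hbegf was not called. The mix by mouth came nearest, with 25.1 to 45.7 TPM and a median of 35.0, and was 1.40 above PBS-PO on the log2 scale (limma adjusted p = 0.0571, SE 0.36). All 6 of its libraries lay above the highest PBS-PO library, and for 1.01% of all genes the ranges were apart in either direction. Without the appended libraries, none of which belongs to these groups, it was called (adjusted p = 0.0477). The differences from PBS were 1.18 in Vancomycin-PO, 1.09 in Mix-IV, 0.83 in Neomycin-PO, 0.82 in Vancomycin-IV, 0.74 in Ampicillin-PO and 0.74 in Vancomycin-IP. They were 0.69, 0.61 and 0.53 after metronidazole IP, PO and IV and 0.11 in Ampicillin-IV, where the values (9.17 to 35.9 TPM) overlapped with those of PBS-IV. Groups that share a route share their PBS libraries, so these values are not separate evidence of a direction.

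**Figure D2:**
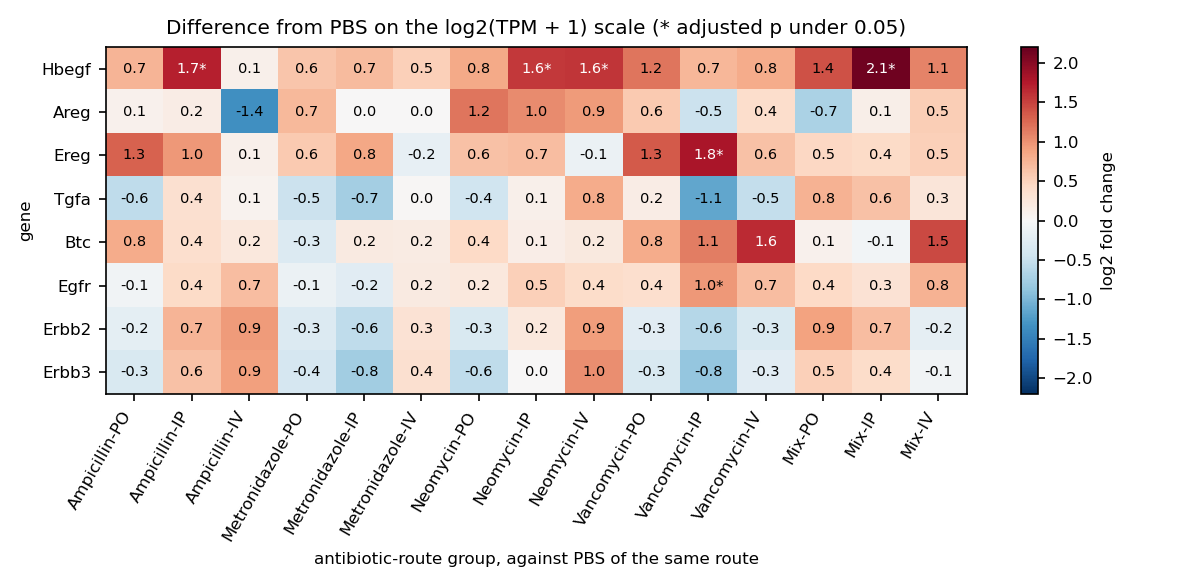
Log2 fold change on the log2(TPM + 1) scale (colour and printed value) of each gene (rows) in each antibiotic group against PBS of its route (columns). A star marks a limma adjusted p under 0.05. The 6 stars are Hbegf in Ampicillin-IP, Neomycin-IP, Neomycin-IV and Mix-IP, and Ereg and Egfr in Vancomycin-IP.

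Averaging an antibiotic's difference from PBS over the 3 routes uses all of its libraries against the 15 PBS libraries. Hbegf rose by 1.55 after the mix (95% interval 1.11 to 1.98, limma adjusted p = 3.34e-06), from a mean of 13.1 TPM over the PBS groups to 39.6 TPM. It rose by 1.32 after neomycin (0.87 to 1.76, adjusted p = 2.06e-05), by 0.91 after vancomycin (0.46 to 1.37, adjusted p = 0.00336) and by 0.86 after ampicillin (0.42 to 1.29, adjusted p = 0.00747). After metronidazole the difference was 0.61 (0.15 to 1.08, adjusted p = 0.386). In these averaged comparisons 1 of the 8 genes was called for the mix, 2 for neomycin, 4 for vancomycin, 2 for ampicillin and 0 for metronidazole. The shares of all genes called were 7.96%, 2.34%, 26%, 7.88% and 0.398%, so the vancomycin count stands beside a high background. For metronidazole 1 of the 8 genes, Hbegf, had an unadjusted p under 0.05. The Hbegf calls for the mix, neomycin, vancomycin and ampicillin held under each of the 11 alternative settings and without any library. All 5 averages share the PBS libraries.

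The distal score was lower by 1.13 after the mix, averaged over the routes, and by 1.76 in Mix-PO and 1.65 in Mix-IP, and the muscle score was higher by 1.22 after vancomycin. With the muscle and distal scores as covariates the averaged Hbegf rise was 1.32 after the mix (limma adjusted p = 3.60e-06), 1.35 after neomycin (1.60e-07), 0.76 after vancomycin (0.0171) and 0.74 after ampicillin (0.00544). Contrasts between antibiotics were added after the values were seen. Hbegf was lower after metronidazole than after the mix by 0.93 (adjusted p = 0.00327, beside 10.9% of all genes called). It was lower after vancomycin than after the mix by 0.63 (adjusted p = 0.0324, beside 21.9%). Metronidazole was not called against the single antibiotics. Hbegf was 0.24 for ampicillin minus metronidazole (limma adjusted p = 0.620). It was -0.30 for metronidazole minus vancomycin (0.420) and -0.70 for metronidazole minus neomycin (0.0644).

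**Figure D3:**
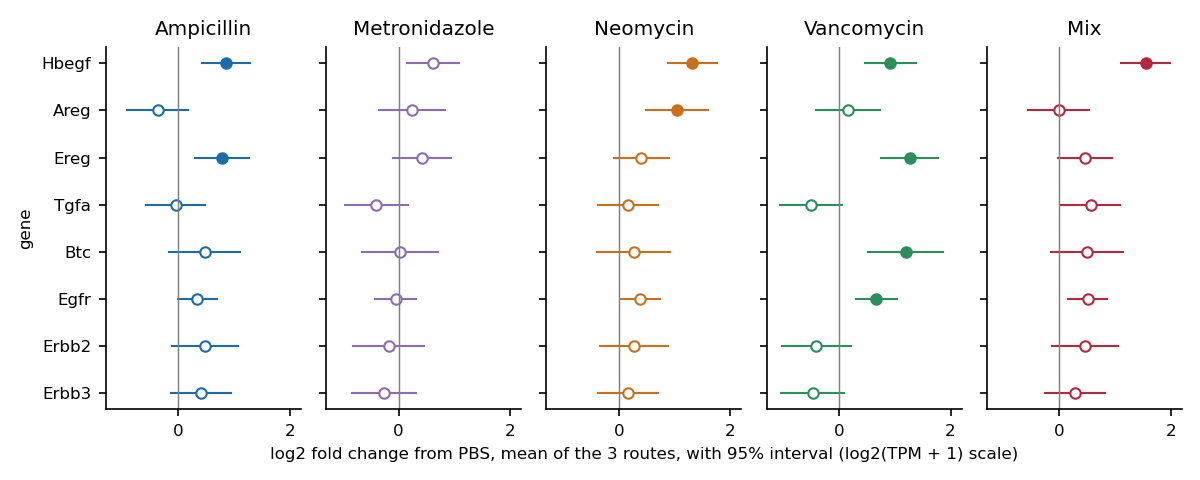
Log2 fold change from PBS averaged over PO, IP and IV (horizontal axes, log2(TPM + 1) scale) for the 8 genes (vertical axis) and each antibiotic (panels). Points are estimates, lines 95% intervals, and filled points have a limma adjusted p under 0.05. Hbegf is filled in every panel but metronidazole, and Areg is filled for neomycin and in no other panel.

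Areg, a ligand whose transcription can be raised by cyclic AMP, was highest after neomycin. The neomycin groups held 3 of the 4 highest of its group means. Areg stood at 34.9, 34.0, 16.7, 39.3 and 65.7 TPM in Neomycin-IV, at 17.2 to 52.1 TPM with a median of 34.4 in Neomycin-IP, and at 7.46 to 50.3 TPM with a median of 30.4 in Neomycin-PO. The PBS libraries held 13.8, 31.5, 11.2, 7.09 and 48.0 TPM IV, 15.4, 16.6, 11.2 and 20.4 TPM IP, and 7.04 to 15.5 TPM with a median of 11.8 PO. In each route the ranges overlapped. No single neomycin group passed, with log2 fold changes of 1.18 PO, 1.03 IP and 0.94 IV and limma adjusted p from 0.711 to 0.845. Averaged over the routes Areg rose by 1.05 (95% interval 0.49 to 1.60, adjusted p = 0.0200), from 16.5 to 34.4 TPM. That call was lost without PBS-IV replicate 4 (adjusted p = 0.0538) and without the appended libraries (1.12, adjusted p = 0.0608).

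The neomycin level of Areg was also set against the other antibiotics. The 10 contrasts between antibiotics make 80 tests over the 8 genes, of which 16 were called. The shares of all genes called in these contrasts ran from 0.82% (ampicillin against the mix) to 29.3% (neomycin against vancomycin), with 2.3% for ampicillin against vancomycin, 3.5% for metronidazole against neomycin and 7.02% for ampicillin against metronidazole. Areg was lower after ampicillin than after neomycin by 1.42 (SE 0.26, limma adjusted p = 9.94e-05), where 4.4% of all genes were called. It was higher after neomycin than after the mix by 1.06 (adjusted p = 0.0234, beside 0.954% of all genes) and than after vancomycin by 0.89 (adjusted p = 0.0164, beside 29.3%). Areg after metronidazole minus Areg after neomycin was -0.80 and was not called (limma adjusted p = 0.0987, beside 3.5%). Its lowest group was Ampicillin-IV, with 2.36 to 17.8 TPM and a median of 5.40, a difference from PBS-IV of -1.36 (limma adjusted p = 0.442, and -1.47 with adjusted p = 0.0356 with the covariates). In Mix-PO, which contains neomycin, Areg ranged from 2.36 to 17.4 TPM with a median of 6.11 (-0.70, adjusted p = 0.604). Those libraries overlapped with PBS-PO. The distal score was lower in Mix-PO than in PBS-PO by 1.76. Mix-PO replicates 5 and 6, with distal scores of 3.25 and 3.78, held 15.6 and 17.4 TPM of Areg. The other Mix-PO libraries, with distal scores of 0.974 to 1.77, held 2.36 to 8.79 TPM. The part of position along the colon in these levels was not tested, and the contrasts between antibiotics were fitted without the covariates.

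Areg, Ereg and Btc lie in 1 cluster on chromosome 5, together with Epgn, and Areg was called after neomycin and Btc after vancomycin. The sequences just before the gene starts of Areg and Btc are shown for that reason, with those of Tgfa and Erbb2, whose levels moved together over the libraries. They are the 250 bases before the start in the RefSeq promoter table (build GRCm38.p6, an earlier build than the GRCm39 named for the data), 5′ to 3′ on the strand of the gene. Promoters of 5 of the 8 genes were used, those of Areg, Tgfa, Btc, Egfr and Erbb2. Those of Ereg and Erbb3 were not in that table, and that of Hbegf was left out before the search. The Egfr window is not printed and held 1 GC box. Capitals mark matches on either strand to TGACGTCA, the cyclic AMP response element, to the GC box GGGCGG and to the TATA box TATAAA, beside which the AP-1 site TGANTCA and the E-box CACGTG were searched.
The Areg sequence is chr5:91139349-91139598 on the plus strand.
Areg: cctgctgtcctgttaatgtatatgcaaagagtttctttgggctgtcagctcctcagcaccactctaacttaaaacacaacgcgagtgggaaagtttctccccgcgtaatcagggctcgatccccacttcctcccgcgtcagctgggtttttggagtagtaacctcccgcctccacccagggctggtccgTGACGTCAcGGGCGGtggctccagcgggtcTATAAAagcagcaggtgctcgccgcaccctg
The Btc sequence is chr5:91402995-91403244 on the minus strand.
Btc: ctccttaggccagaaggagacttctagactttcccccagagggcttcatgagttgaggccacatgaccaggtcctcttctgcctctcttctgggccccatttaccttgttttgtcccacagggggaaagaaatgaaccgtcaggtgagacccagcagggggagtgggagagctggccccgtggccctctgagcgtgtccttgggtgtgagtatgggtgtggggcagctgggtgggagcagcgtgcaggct
The Tgfa sequence is chr6:86194972-86195221 on the plus strand.
Tgfa: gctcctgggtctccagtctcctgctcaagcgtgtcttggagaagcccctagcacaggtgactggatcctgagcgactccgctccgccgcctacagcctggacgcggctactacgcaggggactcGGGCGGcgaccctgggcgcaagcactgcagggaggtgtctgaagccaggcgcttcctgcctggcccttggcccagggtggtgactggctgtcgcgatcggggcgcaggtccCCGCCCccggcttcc
The Erbb2 sequence is chr11:98412234-98412483 on the plus strand.
Erbb2: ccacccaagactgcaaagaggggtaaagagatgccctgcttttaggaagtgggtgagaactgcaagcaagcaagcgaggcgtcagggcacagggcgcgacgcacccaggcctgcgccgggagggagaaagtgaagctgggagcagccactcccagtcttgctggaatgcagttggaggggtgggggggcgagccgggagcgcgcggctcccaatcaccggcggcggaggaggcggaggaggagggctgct
The Areg window held 1 match to the cyclic AMP response element, with its first base 61 bases before the start, 1 GC box at 52 and 1 TATA box at 31. Of the 32851 promoters in the table, 1.55% held the first motif, 32.7% a GC box and 12.4% a TATA box in the same window. The Tgfa window held 2 GC boxes, and the Btc and Erbb2 windows held 0 matches to the 5 motifs. AP-1 and E-box matches, present in 6.75% and 6.02% of promoters, were in none of the 4. The motifs searched do not overlap each other in the Areg window. A match is a description of the letters and not a measured binding site.

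Ereg, a ligand made by stromal and epithelial cells, rose after vancomycin IP. Its level was 17.7, 13.9, 12.7 and 14.5 TPM there against 1.85, 5.07, 5.45 and 2.58 TPM in PBS-IP. The lowest vancomycin value was above the highest PBS value. The log2 fold change was 1.80 (SE 0.49, limma adjusted p = 0.0137). In this comparison 2 of the 8 genes were called, beside 19% of all genes tested, and 4 of the 8 had ranges that did not overlap, beside 30.6% of all genes, so the counts are near the background. Smooth muscle markers moved with it. Of 18 muscle markers 16 were called higher, their summed level ran from 56616 to 95405 TPM against 11501 to 20462 TPM in PBS-IP, and the score was higher by 2.22, while the summed level of the 12 pan-epithelial markers ran from 2627 to 9829 TPM against 11148 to 18187. None of these markers had a median of 0 over the libraries. With the muscle and distal scores as covariates Ereg was not called (0.65, adjusted p = 0.478). It was also not called without PBS-IP replicate 1 (adjusted p = 0.0531) or without the appended libraries, which left 1 Vancomycin-IP and 2 PBS-IP libraries (2.17, adjusted p = 0.286).

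Ereg averaged over the routes rose by 1.26 after vancomycin (95% interval 0.76 to 1.77, limma adjusted p = 0.00043) and by 0.79 after ampicillin (0.30 to 1.27, adjusted p = 0.0301). The mean rose from 4.89 TPM over the PBS groups to 13.1 and 9.53 TPM. The Vancomycin-PO libraries ran from 4.38 to 19.9 TPM with a median of 13.8, and Vancomycin-IV held 3.15, 14.7, 15.3, 14.4 and 11.9 TPM, so the lowest Vancomycin-PO library lay within the PBS range and Vancomycin-IV replicate 1 below it. In Ampicillin-PO the values (7.97 to 26.6 TPM, median 9.67) lay above all PBS-PO values (2.53 to 7.96, median 3.25), as was so in either direction for 0.603% of all genes. Even so that comparison was not called (1.30, limma adjusted p = 0.215). The muscle score was higher by 1.22 after vancomycin and by 0.70 after ampicillin in these averages. With the covariates the vancomycin rise was 0.63 and still called (adjusted p = 0.0127), and the ampicillin difference was 0.41 (adjusted p = 0.0607). The ampicillin call was further lost without the appended libraries (0.75, adjusted p = 0.150) and without any of Ampicillin-IP replicates 4 or 5, Ampicillin-IV replicate 3, Ampicillin-PO replicate 3, PBS-IP replicates 1 or 4 or PBS-IV replicate 5 (up to 0.0693). Ereg was lower after neomycin than after vancomycin by 0.86 (adjusted p = 0.0101) and lower after metronidazole than after vancomycin by 0.85 (adjusted p = 0.0311), and it was higher after vancomycin than after the mix by 0.80 (adjusted p = 0.0163).

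Btc, a ligand that can activate EGFR and ERBB4 partners alike, was called in none of the 15 single comparisons. In Vancomycin-IV it stood at 8.10, 29.0, 23.4, 16.4 and 24.4 TPM against 8.90, 5.43, 1.54, 11.8 and 3.81 TPM in PBS-IV (1.64, SE 0.58, limma adjusted p = 0.159). In Vancomycin-IP it stood at 17.7, 20.5, 8.97 and 11.9 TPM against 6.96, 7.19, 4.42 and 5.28 TPM. The IP ranges did not overlap, as was so for 30.6% of all genes in that comparison. The difference of 1.13 had a limma adjusted p of 0.186, and 0.0117 when those groups were fitted alone. Averaged over the routes Btc rose by 1.20 after vancomycin (95% interval 0.52 to 1.87, adjusted p = 0.00795). With both scores as covariates it was 0.32 (adjusted p = 0.375), and without the appended libraries 1.16 (adjusted p = 0.117). In Vancomycin-IP the covariates turned its sign, to -0.47 (adjusted p = 0.797). Btc was lower after metronidazole than after vancomycin by 1.17 (adjusted p = 0.0245) and lower after neomycin than after vancomycin by 0.93 (adjusted p = 0.0283).

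Tgfa stood lowest in Vancomycin-IP, at 6.98, 5.40, 5.77 and 7.51 TPM, where PBS-IP held 15.7, 13.9, 18.8 and 13.2 TPM. The groups did not overlap, as was so for 30.6% of all genes in this comparison. The difference was not called (-1.14, SE 0.53, limma adjusted p = 0.107). It was called when these groups were fitted alone (adjusted p = 0.00208) and with array weights (0.00585), and it was -0.06 with both covariates (adjusted p = 0.985). Its highest groups were Mix-PO (15.6 to 32.5 TPM, median 28.9) and Mix-IP (12.8 to 34.6, median 26.9). Against PBS these gave 0.77 and 0.65 (adjusted p = 0.531 and 0.571). Tgfa was higher in the mix than after vancomycin by 1.06 on the averages over routes (adjusted p = 0.00546, beside 21.9% of all genes) and higher in the mix than after metronidazole by 0.96 (adjusted p = 0.0131, beside 10.9%).

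Among the receptors, Egfr rose after vancomycin IP, at 71.6, 23.9, 55.7 and 46.5 TPM against 31.8, 29.0, 11.9 and 25.9 TPM in PBS-IP. Replicate 2 lay within the PBS range and the other 3 above it. The log2 fold change was 0.96 (SE 0.35, limma adjusted p = 0.0459), and it was not called without any of 7 of the 8 libraries, Vancomycin-IP replicate 2 being the exception (adjusted p up to 0.180), and it was lost in 7 of the 11 alternative settings. Those were the muscle and distal covariates (0.97, adjusted p = 0.267), the muscle score alone (0.398), no appended libraries (0.296), quantile normalization (0.0802), the compared groups alone (0.0770), no filter (0.0533) and a pseudocount of 0.1 (0.0508). Averaged over routes Egfr rose by 0.66 after vancomycin (95% interval 0.30 to 1.03, adjusted p = 0.00710), from 23.5 to 38.1 TPM, and this was 0.67 with the covariates (adjusted p = 0.0198). Without the appended libraries it was 0.75 (adjusted p = 0.0734). After the mix the averaged difference was 0.51 (0.16 to 0.86, adjusted p = 0.0560), which passed the threshold with the covariates (0.60, adjusted p = 0.0182) and in a fit of the compared groups alone (adjusted p = 0.0427). Egfr was lower after metronidazole than after vancomycin by 0.72 (adjusted p = 0.0112, beside 7.64% of all genes) and than after the mix by 0.56 (adjusted p = 0.0301).

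Erbb2 and Erbb3 were called in none of the comparisons with PBS as first fitted. For ampicillin averaged over the routes, the muscle and distal scores as covariates moved Erbb2 from 0.48 to 0.75 (limma adjusted p = 0.00551) and Erbb3 from 0.40 to 0.70 (adjusted p = 0.00681), and the muscle score alone gave 0.82 (adjusted p = 0.0204) and 0.74 (adjusted p = 0.0128). Both had their lowest group mean in Vancomycin-IP, with 49.2 to 100.4 TPM and 69.2 to 159 TPM, and their highest in Mix-PO, with 93.3 to 363 TPM (median 269) and 174 to 469 TPM (median 367). For Erbb3 the Vancomycin-IP values lay below all PBS-IP values (179 to 255), and the Ampicillin-IP values (287 to 577, median 300) above them, ranges apart as for 30.6% and 3.32% of all genes. The differences were -0.85 (SE 0.54, limma adjusted p = 0.236) and 0.64 (SE 0.49, adjusted p = 0.755), and the covariates turned the sign of the first, to 0.16. On averages over routes Erbb2 was lower after vancomycin than after the mix by 0.87 (adjusted p = 0.0306) and Erbb3 by 0.76 (adjusted p = 0.0351). The intervals against PBS leave room for sizeable differences, for Erbb2 from -1.03 to 0.22 after vancomycin and from -0.13 to 1.06 after the mix.

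**Figure D4:**
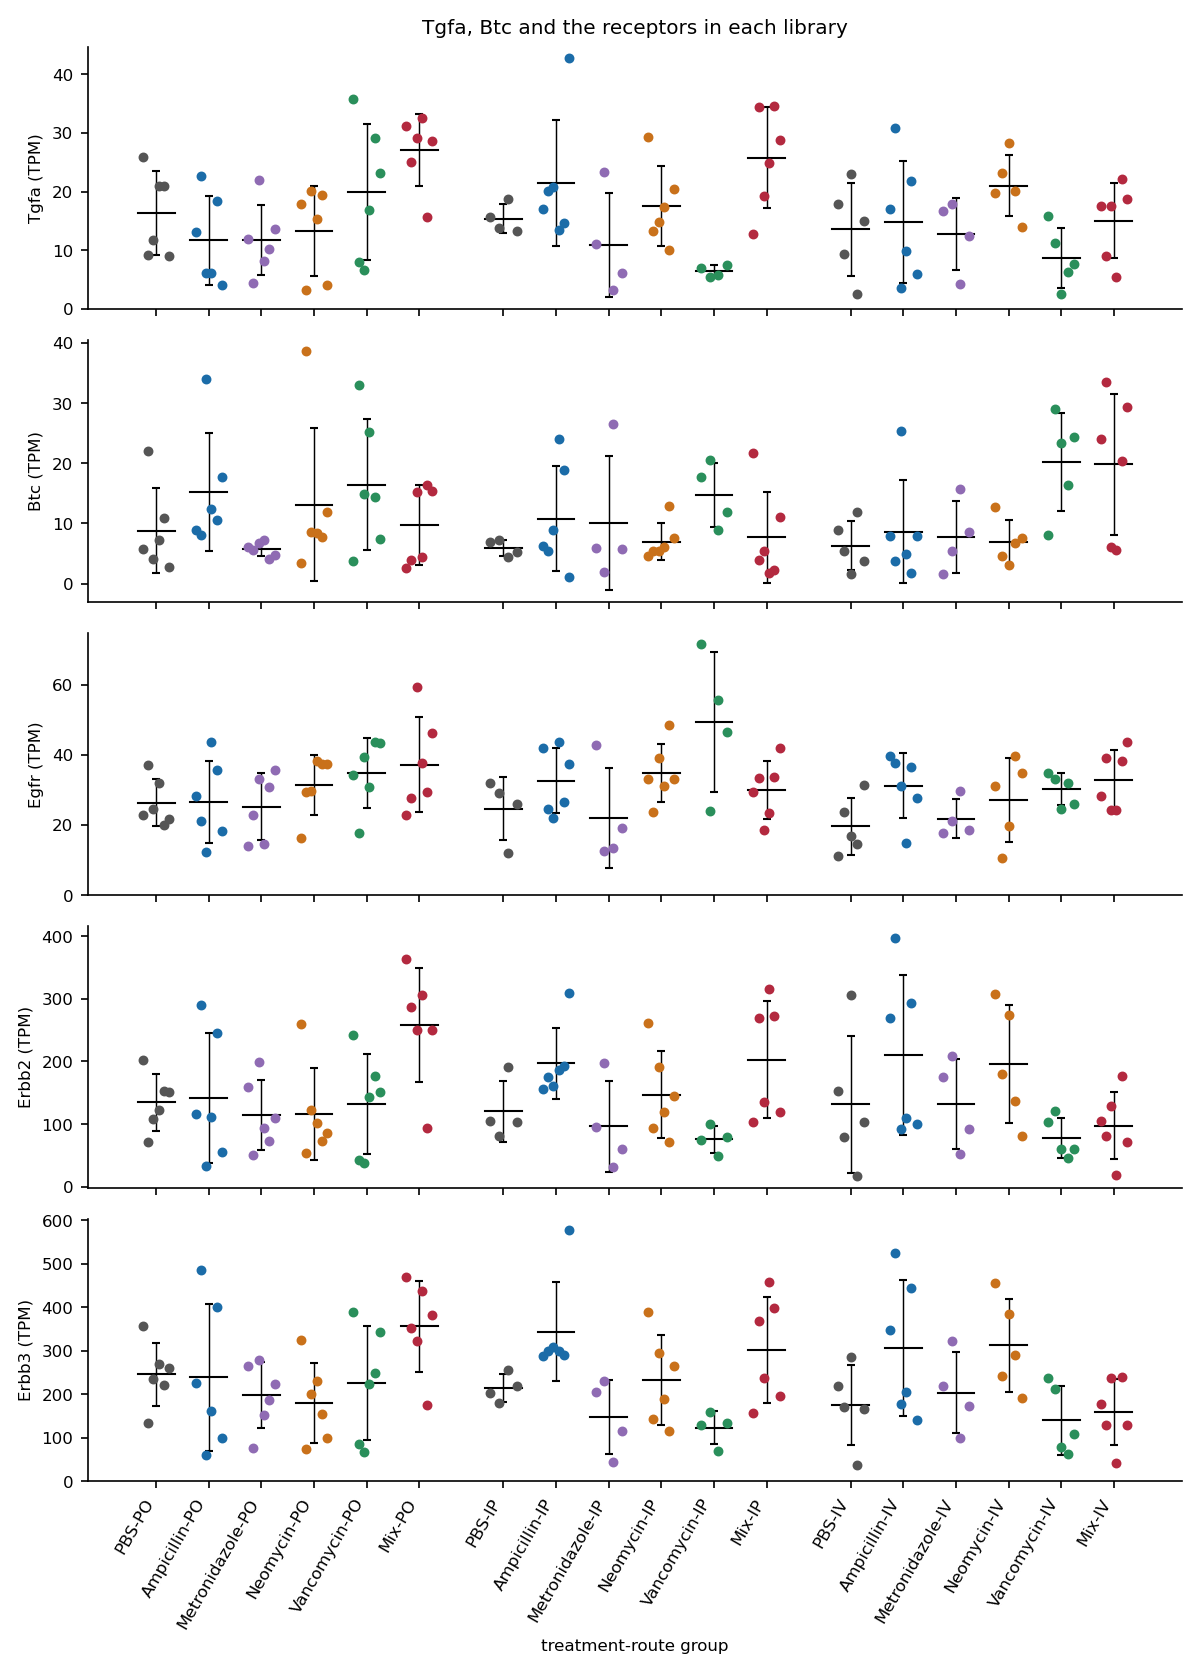
Level of Tgfa, Btc, Egfr, Erbb2 and Erbb3 (vertical axes, TPM) in every library by group, ordered by route. Points are libraries, horizontal lines group means and bars SD (n = 4 to 6). Tgfa in Vancomycin-IP (5.40 to 7.51 TPM) lies below PBS-IP (13.2 to 18.8), and Erbb2 and Erbb3 peak together in Mix-PO. In that Vancomycin-IP comparison 30.6% of all genes had ranges apart.

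By route and antibiotic, the comparisons with 0 of the 8 genes called by limma were these. Ampicillin PO and IV had 2 genes each at an unadjusted p under 0.05 and 0.0702% and 0.082% of all genes called. Metronidazole PO, IP and IV had 0 each and 0% of all genes called. Neomycin PO had 2 (0.0176%), vancomycin PO 2 (0.176%), vancomycin IV 3 (0.258%), the mix PO 1 (0.252%) and the mix IV 3 (0%). No test of equal antibiotic effects over the 3 routes called any of the 8, for any of the 5 treatments, with 0.0878% of all genes called for neomycin and 0% for the others. No difference between the 3 PBS groups was called in any of the 8 genes (0% of all genes called), with 0 unadjusted p under 0.05 for either injected route against PO, and for Hbegf that adjusted p was 0.931.

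The 8 genes separated into sets by how they moved with the smooth muscle and pan-epithelial scores across the libraries. Over the 97 libraries Btc (Pearson r = 0.82, Spearman rho = 0.81) and Ereg (r = 0.80, rho = 0.80) went up with the smooth muscle score, and Tgfa (r = -0.73, rho = -0.72), Erbb3 (r = -0.66, rho = -0.66) and Erbb2 (r = -0.61, rho = -0.62) went down with it. Each had a permutation p = 1e-05, the smallest that 100000 resamples can give, and an adjusted p = 1.6e-05 over 16 relations. With the pan-epithelial score r was 0.88 for Tgfa, 0.83 for Erbb3, 0.75 for Erbb2, -0.57 for Btc and -0.55 for Ereg, with the same p and adjusted p. For Hbegf, Areg and Egfr neither relation passed, with r of 0.04, 0.03 and 0.07 for muscle and 0.14, 0.09 and 0.12 for epithelium (permutation adjusted p from 0.244 to 0.770). Relations to the distal colon score were not tested, so these values do not cover position along the colon.

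**Figure D5:**
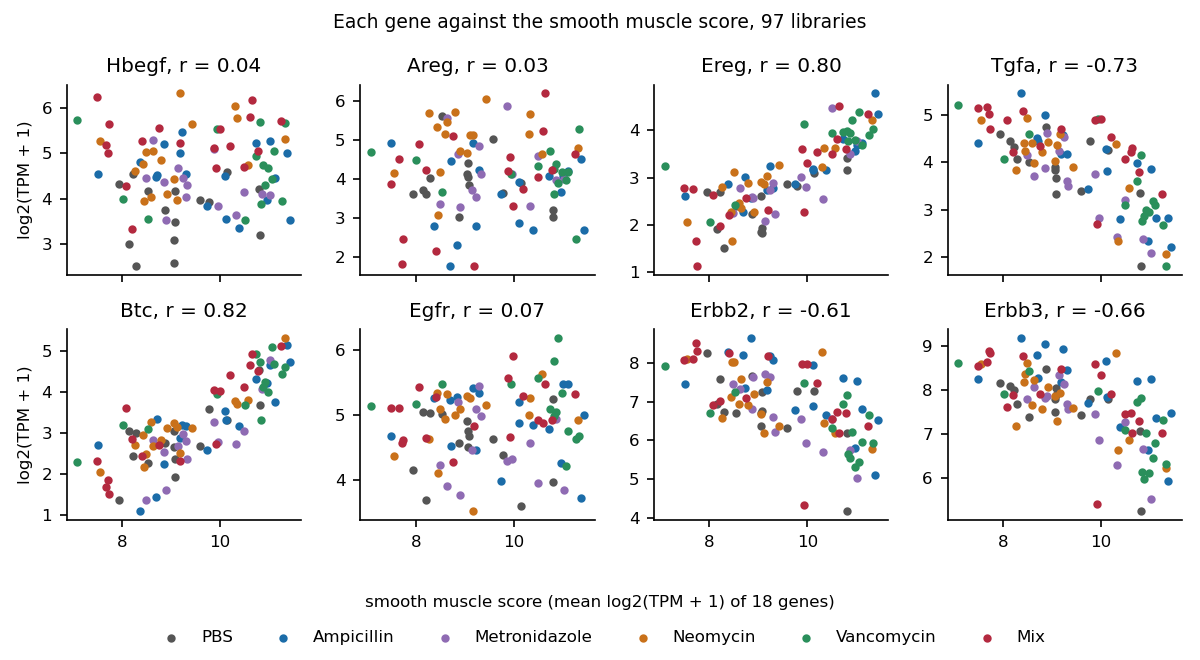
Log2(TPM + 1) of each gene (vertical axes) against the smooth muscle score (horizontal axes, mean log2(TPM + 1) of 18 genes) in the 97 libraries, coloured by treatment. Pearson r stands over each panel. Btc (0.82) and Ereg (0.80) climb with the score, Tgfa (-0.73), Erbb3 (-0.66) and Erbb2 (-0.61) decline, and Hbegf, Areg and Egfr have values of 0.04, 0.03 and 0.07.

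The relations held within routes and without extremes. For muscle, r within the PO, IP and IV libraries was 0.81, 0.80 and 0.84 for Btc, 0.76, 0.78 and 0.88 for Ereg, and -0.69, -0.81 and -0.70 for Tgfa (n = 36, 30 and 31). On deviations from group means it was 0.84, 0.79 and -0.72, so the relation was present among libraries given the same treatment. Without the 2 libraries farthest from the median score it was 0.82, 0.82 and -0.71. For Hbegf the values within routes were 0.10, -0.19 and 0.15.

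The genes with the most similar profiles over the 97 libraries, on log2(TPM + 1), are given as descriptions. For Erbb2 the closest was Erbb3 (r = 0.96), followed by the semaphorin Sema4a (0.95) and Eps8l2 (0.94), and for Erbb3 the list also held the receptor adaptor Grb7 (0.94). For Tgfa they were the coronin Coro2a (0.96), Plekha8 (0.94) and Tmbim6 (0.94). For Btc they were the phosphodiesterase Pde3a (0.91), the phosphatase inhibitor Ppp1r2 (0.91) and the cytoskeletal adaptor Sorbs2 (0.90), and for Ereg Tmem100 (0.87), Stk40 (0.86) and Cdr2 (0.85). On deviations from group means, the cyclooxygenases Ptgs1 (0.84) and Ptgs2 (0.84) followed Tmem100 for Ereg. Hbegf had weaker companions in the ephrin receptor Epha2 (0.69), the zinc finger factor Klf6 (0.68) and Tmcc3 (0.67). Areg had Sprr2a3 (0.72), the SMAD repressor Skil (0.69) and the ERK phosphatase Dusp6 (0.67), and Egfr had Pdlim5 (0.62), Tmed7 (0.59) and Lysmd3 (0.58). These lists changed on deviations from group means. There Hbegf had Bmp8a (0.66), Elovl6 (0.65) and Stk10 (0.64), and Areg had Pdp2 (0.76), Anxa8 (0.75) and Skil (0.74). Egfr had Sec23ip (0.59), Pdlim5 (0.56) and Snx4 (0.56). All points share their library, its tissue makeup and its scaling.

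Members paired in the same way. Erbb2 and Erbb3 had r = 0.96, Tgfa and Erbb3 0.85, Tgfa and Erbb2 0.83, and Ereg and Btc 0.79 over the libraries, and 0.95, 0.86, 0.83 and 0.79 on deviations from group means. Hbegf and Areg had r = 0.26, and the highest r of Egfr with another member was 0.20, with Btc.

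Genes around the receptors were read through lists of ligand-releasing enzymes, adaptors and kinases, feedback inhibitors and early response genes. After neomycin, averaged over the routes, 4 of 20 feedback inhibitors rose and 0 fell, with a list median of 0.12 against 0.04 over all genes. Over all genes 2.34% were called in that comparison. The 4 were Dusp5 (0.78, limma adjusted p = 0.000744) and Dusp6 (0.75, adjusted p = 0.000225), phosphatases that switch off ERK, together with Rasa1 (0.40), which turns off RAS, and 1 further gene. Dusp6 rose from 28.1 to 50.4 TPM, and it also rose in Neomycin-IP by 1.10 (adjusted p = 0.0149). Of 27 early response genes 2 rose, Ier5 (0.63) and Klf6 (0.55), with a list median of 0.24, and of 22 adaptors and kinases 1 rose, the adaptor Grb2 (0.41, list median 0.11). Of 8 sheddases and their regulators limma called 0 (list median 0.11), with Adam17, the main sheddase of Areg and Hbegf, which was singled out after its values were seen, at 0.34 (adjusted p = 0.0763).

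After the mix, where 7.96% of all genes were called, 2 of 20 feedback inhibitors rose, Errfi1 (0.74, limma adjusted p = 0.00721), which binds and blocks EGFR kinase, and Socs4 (0.28). Lrig1, a membrane protein that lowers receptor levels and marks crypt stem cells, fell by 0.58 (adjusted p = 0.0485). The list median was 0.12 against 0.02 over all genes. Of 27 early response genes 2 rose, Ier5 (0.50) and Klf6 (0.49), with a median of 0.22, and 3 of 22 adaptors and kinases rose, Nras (0.61), Stat3 (0.47) and Grb2 (0.42), with a median of 0.17. After ampicillin, where 7.88% of all genes were called, 5 of 20 feedback inhibitors rose, led by Dusp5 (0.50), Dusp4 (0.47) and Spred1 (0.41), 3 of 27 early response genes rose, Dusp1 (0.78), Ier5 (0.70) and Maff (0.53), and 3 of 22 adaptors rose, Ptpn11 (0.61), Grb2 (0.57) and Gab1 (0.39). The medians of these lists were 0.22, 0.08 and 0.19 against 0.07 over all genes. After metronidazole, where 0.398% of all genes were called, the 1 gene called on these lists was Rasa1 (0.52, adjusted p = 0.0119).

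After vancomycin, with 26% of all genes called and the muscle score higher, the counts were larger. Of 27 early response genes 10 rose, led by Ccn2 (1.70), Ccn1 (1.69) and Nr4a1 (1.22), and 2 fell, Junb (-0.82) and Ier2 (-0.73). Of 20 feedback inhibitors 7 rose, led by Spry4 (1.12), and 1 fell, Lrig3 (-0.57), and 12 of 22 adaptors and kinases rose, led by the phosphatase Ptpn11 (1.01). The medians of these lists were 0.36, 0.19 and 0.25 against 0.05 over all genes. Adam9 (0.52) and the inhibitor Timp3 (0.97) rose and Adam15 fell by 0.38. Egf, the ligand that names the family, fell by 0.65 (limma adjusted p = 0.0134), from 3.11 to 1.57 TPM, the 1 of 5 other ligands tested that was called in any averaged comparison. The part of muscle content in these counts was not tested.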

How the data were processed

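Whole colon RNA was sequenced in 97 libraries. The authors deposited 1 table of TPM values. The tools listed in the submitters' processing notes are Trim Galore 0.6.2, cutadapt 3.5 and Salmon, and the build listed is GRCm39. No count was used here, and depth is unknown. Members and lists were chosen with earlier results of these data known. Groups came from the sample labels, and columns were matched by name.

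TPM was taken to log2(TPM + 1), genes with at least 1 TPM in at least 4 libraries were kept (17083 of 20457), and 1 model of 18 groups was fitted with limma 3.58.1 (R 4.3.3), with an intensity trend and robust variance. Benjamini-Hochberg adjustment ran over all genes tested within each comparison, and an adjusted p under 0.05 was called. The F tests over groups, routes and PBS groups used the same fit. The fit was checked on simulated data. Relations across libraries used 100000 permutations, two-sided. All 8 genes are named in the text, with up to 3 called genes of each pathway list by absolute change and the 3 genes of highest r for each member. Promoters are from RefSeq GRCm38.p6.

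Alternatives were pseudocounts of 10 and 0.1, no filter, quantile normalization, array weights (limma's weighting of libraries by their spread), blocks for the replicate number and the library number, the smooth muscle and distal scores as covariates, the compared groups alone, leaving out the 12 appended libraries and leaving out each library. The muscle score alone as covariate and the contrasts between antibiotics were added after seeing the data. Replicate numbers did not pair the libraries: in 0 of 15 comparisons did every same-numbered pair have correlated deviations with r above 0.1 (range -0.696 to 0.837). No 2 libraries held identical values (0 pairs, highest r 0.989).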

Additional observations from a re-analysis of the deposited data

Results flagged for a closer look

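In 16 of the 144 sets of a gene and a group, 1 library lay far from the rest by Dixon's test. For independent, normally distributed values 1 in 20, or about 7.2, would be flagged. TPM were used without logs and the genes correlate, so 16 cannot be read as an excess over that number. For Hbegf they were Metronidazole-PO replicate 1 (38.2 TPM, others 11.5 to 20.9) and PBS-IP replicate 3 (22.4 TPM, others 4.65 to 7.53). The latter is a control of every IP comparison. Its distal score was 1.36, against 5.01 to 5.26 in the other PBS-IP libraries. Mitochondrial genes made up 25.1% of its TPM, against 7.77% to 10.9% in the others. Whether either bears on its Hbegf level was not tested. For Areg it was Metronidazole-IV replicate 4 (58.1 TPM, others 9.28 to 14.6).

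Ereg and Btc stood apart together in 2 libraries. Ampicillin-IV replicate 3 held 19.3 TPM of Ereg (others 3.80 to 7.97) and 25.4 TPM of Btc (others 1.70 to 8.00), and Ampicillin-PO replicate 3 held 26.6 TPM of Ereg (others 7.97 to 12.4) and 33.9 TPM of Btc (others 8.04 to 17.7). Ereg was also high in Metronidazole-PO replicate 4 (21.2 TPM, others 3.71 to 5.86) and low in Vancomycin-IV replicate 1 (3.15 TPM, others 11.9 to 15.3). Btc was high in Metronidazole-IP replicate 3 (26.5 TPM, others 2.02 to 5.89), Neomycin-IP replicate 5 (12.9 TPM, others 4.54 to 7.64) and Neomycin-PO replicate 2 (38.6 TPM, others 3.47 to 11.9).

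Ampicillin-IP replicate 6 was high in Tgfa (42.7 TPM, others 13.4 to 20.8), Erbb2 (309 TPM, others 157 to 193) and Erbb3 (577 TPM, others 287 to 308). Neomycin-PO replicate 1 was high in Erbb2 (259.7 TPM, others 54.2 to 122).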

How the results depend on the processing

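Counts below are of the 8 genes called, and the cause of each change was not tested. The calls over all genes are not given beside each count. The counts therefore do not say whether the 8 genes stand apart from other genes. With array weights they were 1 in Ampicillin-PO, 2 in Vancomycin-PO, 6 in Vancomycin-IP, 4 in Vancomycin-IV, 1 in Mix-PO, 4 in Mix-IP and 2 in Mix-IV, 1 for metronidazole and 5 for the mix averaged over routes, 1 and 2 for unequal vancomycin and mix effects over routes, 1 between the PBS groups and 8 over the 18 groups. When the compared groups were fitted alone they were 0 in Ampicillin-IP, Neomycin-IP, Neomycin-IV and Mix-IP, 4 in Vancomycin-IP, 1 in Mix-PO and 2 for the mix averaged. With the muscle and distal scores as covariates they were 1 in Ampicillin-IV, 1 in Vancomycin-PO, 0 in Vancomycin-IP and 2 for the mix averaged, and with the muscle score alone 1 in Vancomycin-PO, 0 in Vancomycin-IP, 1 in Mix-PO and 3 for the mix averaged. Without the appended libraries they were 0 in Vancomycin-IP, 1 in Mix-PO, and 1, 1 and 2 for ampicillin, neomycin and vancomycin averaged. A pseudocount of 10 gave 0 in Ampicillin-IP and Neomycin-IP, quantile normalization 0 in Neomycin-IP and 1 in Vancomycin-IP, and a pseudocount of 0.1 or no filter 1 in Vancomycin-IP.

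Leaving out 1 library gave 0 to 1 in Ampicillin-IP, Neomycin-IP, Neomycin-IV, Mix-PO and Mix-IP, 0 to 2 in Vancomycin-IP, 1 to 2 for ampicillin, neomycin and the mix averaged, and 2 to 5 over the 18 groups. Over all genes the calls were 34 to 136, 51 to 116, 51 to 111, 0 to 160 and 3 to 571 in the first 5, in that order. They were 555 to 4575 in Vancomycin-IP, and 989 to 2058, 344 to 442 and 818 to 1795 for the 3 averages. Over the 18 groups they were 1486 to 4265.

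Signs were compared only for differences from PBS called in at least 1 fit. Among those, 5 turned with both covariates and with the muscle score alone. They were Btc in Vancomycin-IP (-0.47 and -0.48), Erbb3 in Vancomycin-IP (0.16 and 0.21) and Tgfa in Vancomycin-IV (0.0320 and 0.000768). Averaged after vancomycin, they were Tgfa (0.0915 and 0.13) and Erbb3 (0.0676 and 0.11). Correlations with the muscle score near 0 turned to -0.0016 for Areg with a pseudocount of 10, and with quantile normalization to -0.0381 for Hbegf, -0.0913 for Areg and -0.0443 for Egfr, where Hbegf with the pan-epithelial score became 0.22.

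The block for the replicate number changed none of the counts of members called, which stayed at 1 in Mix-IP and 4 for vancomycin averaged, although the calls over all genes in Mix-IP went from 47 to 102. Of 74 same-numbered pairs, 15 correlated best with their own number. Depth is unknown in TPM, so its limit on Ereg and Btc, the lowest members, cannot be given.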
